A study of Mus musculus with 10 samples.

Results

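Mitochondria constantly join and divide. Opa1 fuses the inner membrane and shapes the cristae, Mfn1 and Mfn2 are GTPases that fuse the outer membrane, and Dnm1l (DRP1) is the dynamin-related GTPase that constricts and divides the organelle after the outer membrane proteins Fis1 and Mff help to recruit it. Immt (MIC60) and Chchd3 (MIC19) are subunits of the MICOS complex at the necks of the cristae, and Tfam packages mitochondrial DNA and activates its transcription. These 9 genes of fusion, fission, cristae and mitochondrial DNA maintenance were chosen by name, with earlier results of these data known. They come from the 32285 genes listed for the E15.5 and E17.5 libraries and the 27998 listed for E16.5. Each symbol matched 1 row in each table. The study reported mitochondrial genes as the leading category among those lower after loss of the acetyltransferase MOF in these data. It followed Opa1 in them too, so the direction of the members here is not independent evidence. Separate assays in the study also gave lower Opa1. They were in situ hybridization in E15.5 knockout epidermis and qPCR in keratinocytes after knockdown of Msl1, a component of a MOF complex.

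Their transcripts were followed in 10 single-cell RNA-seq libraries of whole dissociated mouse back skin. The E15.5 set held 2 control embryos (replicates 2 and 3) and 2 MOF cKO embryos (replicates 5 and 6), and the E16.5 set 2 of each (replicates 1 and 2). A single control was set beside a single QPC cKO at E17.5. The cKO genotypes were labelled MOFfl/fl/K14Cre and QPCfl/fl/K14Cre. The first lacks the histone H4 lysine 16 acetyltransferase MOF (gene Kat8) and the second the respiratory complex III subunit Uqcrq in cells that have expressed Krt14-Cre, a driver of stratified epithelium, so that dermal cells were not targeted. Controls were labelled only as such. Their exact alleles were not given for each library, and each library stands for 1 sample of skin.

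One E15.5 cKO embryo was described as mosaic in the study, from staining of the histone mark and from how its cells clustered, and the other as homogeneous. The mosaic one is the library labelled replicate 6, and the homogeneous one replicate 5. Chemistry changed with stage, so a difference in level between stages cannot be told apart from a difference between kits.

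Kept cells had over 1000 and under 6000 detected genes and under 10% mitochondrial UMIs (unique molecular identifiers, which count captured transcripts). Epithelial cells held at least 10 UMIs of Krt5 and Krt14 together. Fibroblast cells held at least 30 of Col1a1 and Col3a1 and under 10 of the keratins. Libraries held 1061 to 2896 epithelial and 4376 to 7389 fibroblast cells at E15.5. At E16.5 the controls held 266 and 512 epithelial cells, but the cKO libraries only 30 and 39, which gave 577644 and 800201 UMIs in all. The 3069 and 1162 epithelial cells at E17.5 gave 72986202 and 28628391 UMIs.

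In the fibroblast class of every library, fibroblast markers summed to more than epithelial markers. The summed level of 10 epithelial markers in it was 95.4 to 740 UMIs per 1000000 UMIs of that class and library (CPM), against 24728 to 62927 for 7 fibroblast markers. These lists include the genes used to choose the cells (Krt5 and Krt14, Col1a1 and Col3a1). The order of the sums was thus largely set by that choice and is no separate check of the class. The epithelial class of the E17.5 control went against its name: its fibroblast markers summed to 28478 CPM and its epithelial markers to 17372, and 41.9% of its cells also held at least 30 collagen UMIs, compared with 8.78% in the QPC cKO. The same share was 28.9% in E16.5 control 1 and 0% to 13.0% in the other libraries. Results in epithelial cells were therefore also obtained from cells under that collagen limit. Haemoglobin transcripts were high in both classes at the earlier stages. The 4 erythroid markers summed to 5381 to 31622 CPM in fibroblasts of the 8 E15.5 and E16.5 libraries, above the fibroblast markers in E15.5 control replicate 2 (25428) and MOF cKO replicate 5 (31622), and to 2676 to 30122 CPM in epithelial cells. At E17.5 they summed to at most 544. No doublet caller was run.

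The targeted genes were checked first. Kat8 in epithelial cells stood at 13.0 and 14.0 CPM in the E15.5 controls, at 13.0 in the library labelled cKO replicate 5 and at 10.0 in replicate 6. At E16.5 it was 17.6 and 14.8 in the controls and 8.66 and 3.75 in the cKO, the latter on 5 and 3 UMIs, and did not pass the test (adjusted p = 0.343). Kat8 thus did not separate replicate 5 from its controls. The reads tag the 3′ end, and whether that end lies in the deleted part was not tested. In fibroblasts, where the driver is not expected to act, Kat8 was 9.18 and 9.62 in E15.5 controls against 6.83 and 5.98, and 9.60 and 8.23 at E16.5 against 2.81 and 5.39 (log2 fold change -0.76, SE 0.16, adjusted p = 0.0231 by the edgeR quasi-likelihood test over both stages). That call was lost without any 1 of the 4 E15.5 libraries (adjusted p 0.0697 to 0.0948). The study found staining of the acetylated histone mark intact in MOF cKO dermis. That is a different measure from Kat8 RNA, and the cause of the lower RNA values was not tested. Kat8 overlaps Prss8 on the other strand. Uqcrq in epithelial cells of the QPC cKO was 43.9 CPM against 106 in the control, a ratio of 0.415 (exact 95% counting interval 0.39 to 0.44). In fibroblasts it was 122 against 69.4.

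The genes lie on 7 chromosomes of GRCm38 in the GENCODE M21 annotation. Opa1 spans chr16:29579334-29654884, Mfn1 chr3:32529465-32579239, Mfn2 chr4:147873599-147904704, Dnm1l chr16:16312230-16358959 and Fis1 chr5:136953275-136966234. Mff spans chr1:82724890-82752394, Immt chr6:71831331-71877388, Chchd3 chr6:32790976-33060260 and Tfam chr10:71225464-71238280. Chchd3 overlaps the annotated Gm42895 and Mff overlaps Gm28941 on the same strand, so reads of those pairs may not be fully separable. The other 7 have no such neighbour.

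The study related MOF to gene promoters, so 3 upstream regions are shown: Opa1 and Mfn1, which had the lowest share of their control level in replicate 5 at E15.5, and Immt, which had the highest. They are the 250 bases before the RefSeq start on GRCm38.p6, at chr16:29579084-29579333, chr3:32529232-32529481 and chr6:71831070-71831319, each on the plus strand. Capitals mark matches on either strand to CCGGAAG, an ETS-type core as bound by GABP, and to GCATGCG, a part of the NRF1 site. These are not the motifs of the study, which found those of RFX2 and RFX3 most enriched at promoters of genes lower in MOF cKO. RFX motifs were not searched for here. In Opa1, 2 matches on opposite strands overlap.

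Opa1: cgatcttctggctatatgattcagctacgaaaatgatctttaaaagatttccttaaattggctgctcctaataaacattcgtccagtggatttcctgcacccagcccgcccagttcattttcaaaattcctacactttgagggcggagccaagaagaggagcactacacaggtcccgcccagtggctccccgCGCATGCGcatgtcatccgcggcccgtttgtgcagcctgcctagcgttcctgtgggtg
Mfn1: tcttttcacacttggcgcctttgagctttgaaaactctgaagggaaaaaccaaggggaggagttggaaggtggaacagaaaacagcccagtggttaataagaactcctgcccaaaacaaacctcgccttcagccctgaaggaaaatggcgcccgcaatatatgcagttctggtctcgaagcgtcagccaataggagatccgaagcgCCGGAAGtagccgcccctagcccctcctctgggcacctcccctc
Immt: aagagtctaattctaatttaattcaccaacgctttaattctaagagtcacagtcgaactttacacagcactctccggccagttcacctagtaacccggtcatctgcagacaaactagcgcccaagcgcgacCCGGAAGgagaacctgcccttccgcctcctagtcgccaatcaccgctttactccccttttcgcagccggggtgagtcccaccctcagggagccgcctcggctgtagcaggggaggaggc

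All 9 genes had windows in the RefSeq table, 14 in total, of 300 bases each. CCGGAAG was found in at least 1 window of 6 genes (Mfn1, Dnm1l, Fis1, Immt, Chchd3 and Tfam), in 7 of 14 windows, compared with 8.86% of all 32851 windows. GCATGCG was found in that of Opa1 alone, compared with 3.58% of all windows. For Dnm1l no match lay in the 250 bases before its starts. CCGGAAG was thus present upstream of both the lowest (Mfn1) and the highest (Immt) member of that order. Factor binding was not measured here.

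In E15.5 epithelial cells the fusion genes were low in replicate 5 and near the controls in replicate 6. Opa1 was 35.1 and 34.4 CPM in the controls, 16.6 in replicate 5 and 31.9 in replicate 6. Mfn1 was 19.9 and 17.52 in the controls, 8.76 in replicate 5 and 17.1 in replicate 6. Mfn2 was 12.8 and 12.4 in the controls, 7.09 in replicate 5 and 12.7 in replicate 6. Replicate 5 thus held 46.9% to 56.3% of the control mean of the 3 genes, while the values of replicate 6 were 91.3% to 101%.

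In replicate 5 the fission genes stood at 64.7% to 76.4% of the control mean, Chchd3 at 55.9% and Immt at 87.9%; differences between these groups of genes were not tested. Fis1 was 106 and 101 CPM in the controls, 67.1 in replicate 5 and 90.4 in replicate 6, and with Opa1 and Mfn1 it was 1 of the 3 members in which both cKO libraries lay below both controls. Dnm1l (54.7 and 57.3, then 41.4 and 56.5) and Mff (56.03 and 56.6, then 43.0 and 59.0) were lower in replicate 5 only. Chchd3 was 69.1 and 65.4 in the controls, 37.6 in replicate 5 and 66.4 in replicate 6. Immt, its partner in MICOS, was 135 and 136 in the controls, 119 in replicate 5 and 147 in replicate 6. Tfam was 42.4 and 43.3, then 29.9 and 44.5. In all 9 members replicate 5 lay below both controls, at 46.9% to 87.9% of their mean, as it did in 67.3% of 12989 genes with at least 100 UMIs. Both cKO libraries lay below both controls in 32.7% of those genes. These shares rest on CPM, that is on library size alone. The TMM scaling factor was 0.862 in replicate 5, 1.06 in replicate 6 and 1.05 and 1.04 in the controls, so that scaling raised replicate 5 against the others. The median fitted change over all genes was -0.13 on the log2 scale with library size alone and -0.01 after TMM scaling.

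**Figure D1:**
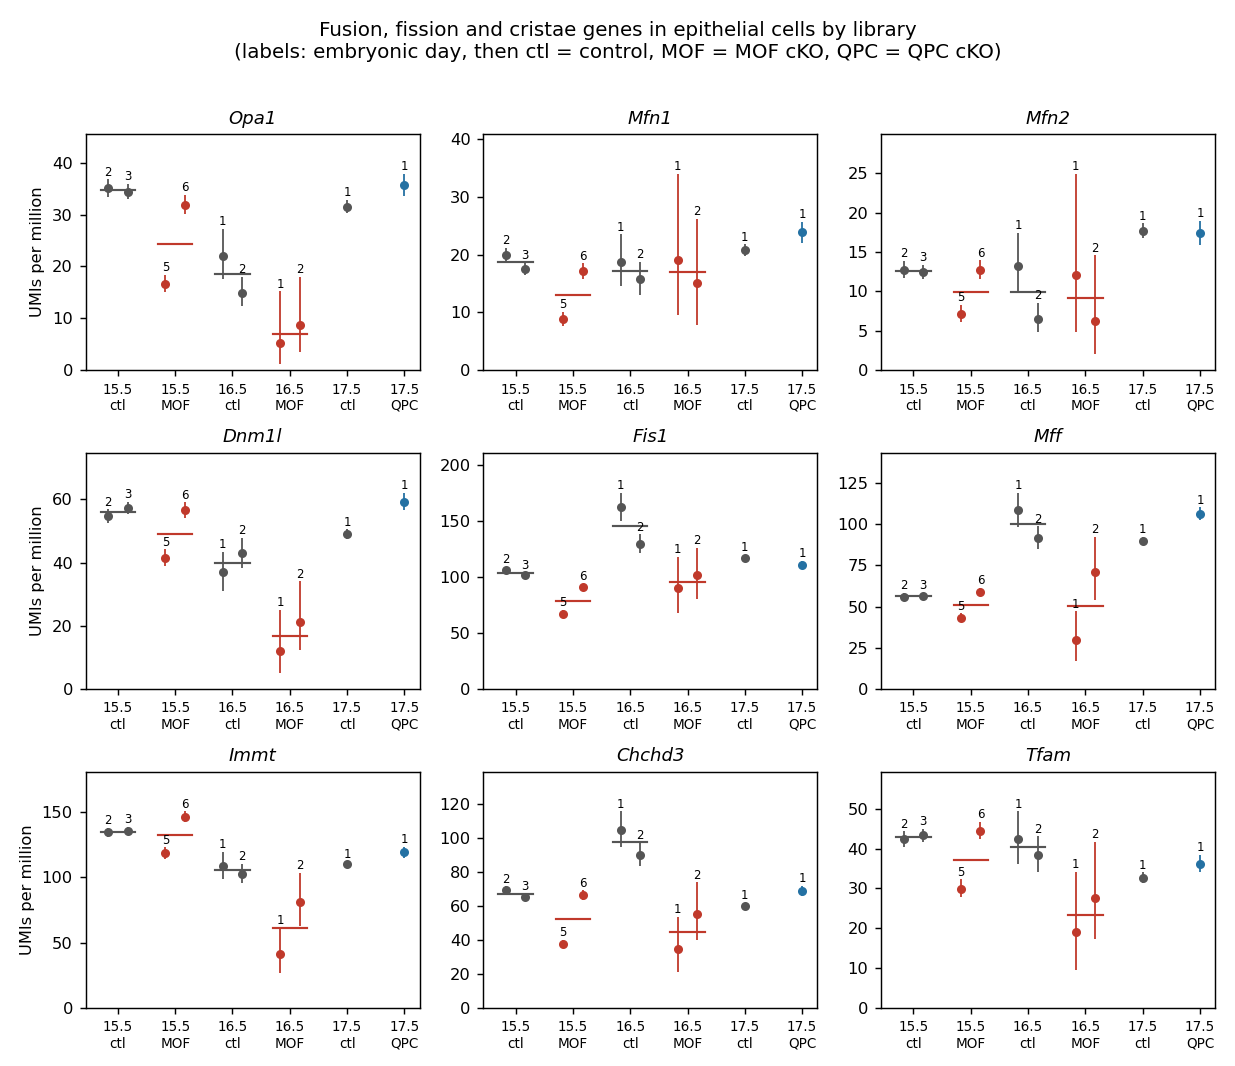
UMIs per 1000000 of the 9 genes in epithelial cells by library; points are libraries with their replicate number, vertical bars exact 95% Poisson counting intervals, and horizontal bars group means where a group has 2 libraries. At E15.5 replicate 5 sits below both controls in each panel and replicate 6 near them; the intervals of the E16.5 MOF cKO libraries, of 30 and 39 cells, are wide.

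No member passed the test at E15.5. The edgeR quasi-likelihood test with TMM scaling called 0 of 14625 genes, 0% (Benjamini-Hochberg adjusted p under 0.05). At an unadjusted p under 0.05 there were 1360, 1 of them a member. DESeq2 called 144 genes and no member. The fitted log2 fold changes were -0.43 for Opa1 (SE 0.24, adjusted p = 0.509), -0.44 for Mfn1 (SE 0.26, adjusted p = 0.515), -0.25 for Mfn2, -0.28 for Fis1, -0.27 for Chchd3, -0.10 for Tfam and 0.09 for Immt.

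The call turned on replicate 6. Without it, 6 of 9 members were lower, against 24.7% of all genes tested: Opa1 by -0.79 (SE 0.07, adjusted p = 0.0036), Mfn1 by -0.82 (adjusted p = 0.00925), Chchd3 by -0.57 (adjusted p = 0.006), Mfn2 by -0.56 (adjusted p = 0.0143), Fis1 by -0.36 (adjusted p = 0.0135) and Tfam by -0.25 (adjusted p = 0.041). Dnm1l, Mff and Immt did not pass. This fit set replicate 5 alone against 2 controls and assumed that it varied as they did. Without replicate 5 instead, no member passed, and Opa1 stood at -0.14 (adjusted p = 0.292).

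Other features of these cells moved with the libraries. The 10 epithelial markers summed to 18306 and 16764 CPM in the controls and to 9631 and 15044 in the cKO, and the 7 fibroblast markers to 1860 and 1751 and to 2597 and 2376. The erythroid markers summed to 18915 and 20815 in the controls, to 30122 in replicate 5 and to 12044 in replicate 6, above the epithelial markers in both controls and in replicate 5. Endothelial, immune, Schwann, melanocyte, myogenic and pericyte markers each summed to at most 56.8 CPM in these 4 libraries. Cells with at least 10 UMIs of the differentiation keratins Krt1 and Krt10 were 6.26% and 10.8% of epithelial cells in the controls and 15.1% and 12.3% in the cKO. The mitochondrially encoded share of UMIs was 4.85% and 4.51% in the controls, 4.04% in replicate 5 and 5.39% in replicate 6. The part of these features in the members' levels was not tested, but fits within limits on some of them were run. The median log2 fold change of the 9 members was -0.25 in the whole class. It was -0.24 in cells with under 10 Krt1 and Krt10 UMIs and -0.14 in those with at least 10. Under 5% mitochondrial UMIs it was -0.22. Under the collagen limit the estimate for Opa1 was -0.47 and for Mfn1 -0.39, with no member called.

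At E16.5, Opa1 was 22.1 and 14.9 CPM in control epithelial cells and 5.19 and 8.75 in cKO cells, the latter on 3 and 7 UMIs. The interval of the lower value ran from 1.07 to 15.2. Dnm1l, the fission GTPase, was 36.8 and 42.9 in the controls and 12.1 and 21.2 in the cKO. Chchd3 was 105 and 90.1, then 34.6 and 55.0. The groups did not overlap for these 3 genes.

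Immt (109 and 103, then 41.5 and 81.2), Tfam (42.3 and 38.4, then 19.0 and 27.5), Fis1 (162 and 129, then 90.0 and 101) and Mff (108 and 91.7, then 29.4 and 71.2) were also lower in both cKO libraries in CPM. The outer membrane fusion genes overlapped: Mfn1 was 18.7 and 15.7 in controls and 19.0 and 14.996 in cKO cells, and Mfn2 was 13.2 and 6.47, then 12.1 and 6.25. So in 7 of 9 members both cKO libraries lay below both controls, as in 59.4% of genes with at least 100 UMIs. CPM values at this stage were low for most genes of the cKO cells: the fitted change over all genes had its median at -0.71 on the log2 scale when only library size was used, and at -0.11 after TMM scaling.

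After TMM scaling no member passed the E16.5 test, which called 5.82% of 9938 genes. Estimates were -0.76 for Opa1 (SE 0.45, adjusted p = 0.311), -0.66 for Dnm1l (SE 0.39), -0.52 for Chchd3 (SE 0.29), 0.58 for Mfn1 (SE 0.38) and 0.51 for Mfn2 (SE 0.59). Not all 7 members that were lower in CPM stayed lower. Estimates were negative for 6 of 9 members after TMM scaling and for 9 of 9 with library size alone. The shares of all genes tested were 54.0% and 75.8%. The positive values of Mfn1 and Mfn2 turned to -0.0335 and -0.134 with library size alone, so no direction can be given for these genes. Krt1 and Krt10 marked 10.2% and 9.38% of control and 30% and 43.6% of cKO epithelial cells, and the fibroblast markers summed to 9042 and 2167 and to 873 and 1230 CPM. Erythroid markers summed to 4505 and 25061 and to 6542 and 2676, and immune markers to 160 and 19.3 and to 102 and 571. Epithelial markers summed to 20064 and 23256 and to 31168 and 31245, so that in control 2 the erythroid sum was the higher. The mitochondrially encoded share of UMIs was 4.03% and 3.62% in the controls and 2.63% and 2.87% in the cKO. The part of these features in the members' levels was not tested, but fits within limits on some of them were run. The member median was -0.19 in the whole class and -0.23 in cells with under 10 Krt1 and Krt10 UMIs. With at least 10 it was -0.53, where only 6 members could be tested. Under 5% mitochondrial UMIs it was -0.19.

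Over both stages, 0 of 9 members passed in epithelial cells (7.29% of 13602 genes), at -0.63 for Opa1 (SE 0.24, adjusted p = 0.131) and -0.44 for Chchd3 (SE 0.18, adjusted p = 0.143). Without replicate 6 at E15.5, Opa1 alone passed (-0.81, adjusted p = 0.0362, among 10.1% of genes lower). No member passed the test for a difference of the effect between stages (0.11% of 13602 genes), which was -0.39 for Opa1 (SE 0.50) and 0.94 for Mfn1 (SE 0.45, adjusted p = 0.345).

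**Figure D2:**
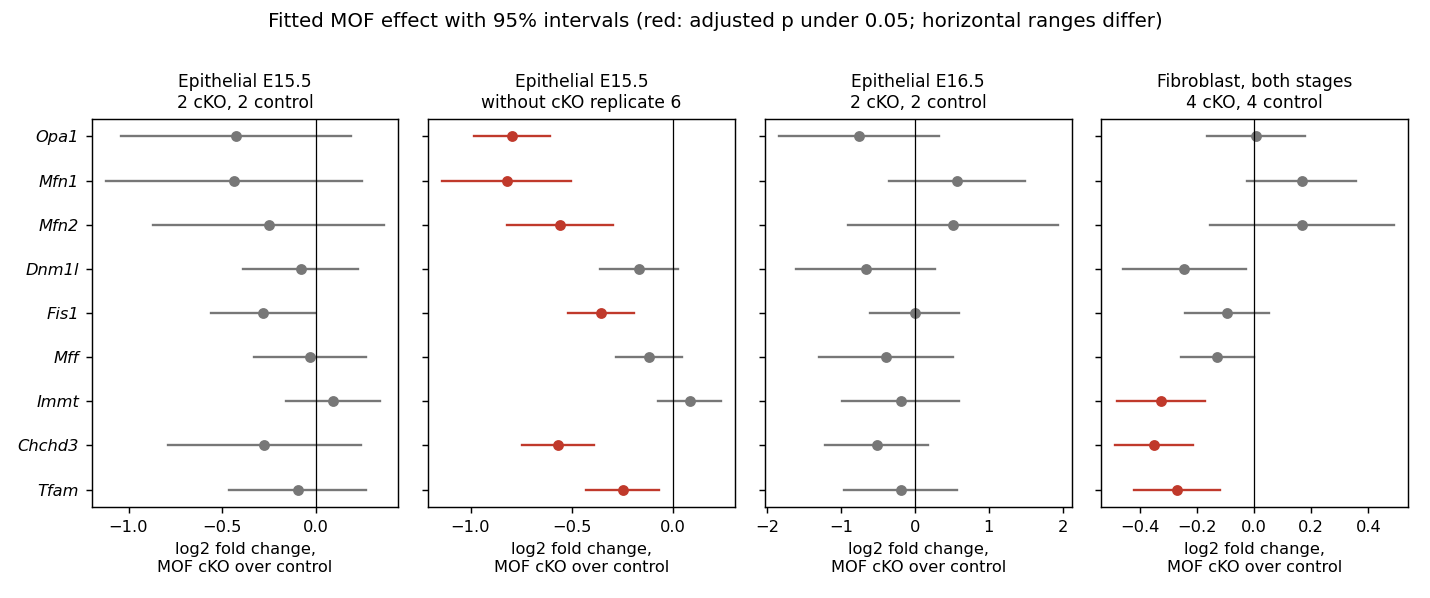
Fitted log2 fold change of MOF cKO over control for each of the 9 genes; points are edgeR estimates, lines 95% intervals, and red marks an adjusted p under 0.05. In E15.5 epithelial cells none is red with 4 libraries and 6 are red without replicate 6; in fibroblasts over both stages Immt, Chchd3 and Tfam are red.

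Fibroblasts of the same skin were compared because Krt14-Cre is an epithelial driver. At E15.5 most members differed little between the libraries. Opa1 was 36.2 and 36.7 CPM in the controls and 34.0 and 36.8 in the cKO, Mfn1 12.8 and 12.2, then 13.2 and 13.6, and Mfn2 10.3 and 11.3, then 10.9 and 11.9. Dnm1l was 52.2 and 53.4, then 49.3 and 53.4, and Mff 65.8 and 65.6, then 63.1 and 65.4. Over all 9 members, CPM in replicate 5 stood at 86.1% to 106% of the control mean in fibroblasts and at 46.9% to 87.9% in epithelial cells. The direct test of that difference, given below, called no member with all libraries.

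In the other 4 members, Chchd3, Immt, Tfam and Fis1, both cKO libraries lay below both controls, and so did those of Mff. Chchd3 was 63.1 and 64.2 in the controls and 54.8 and 56.5 in the cKO, Immt 116 and 117, then 111 and 112, Tfam 29.1 and 28.8, then 27.3 and 27.7, and Fis1 123 and 122, then 117 and 110. Both cKO libraries were lower in 5 of 9 members, compared with 20.5% of genes with at least 100 UMIs. edgeR called 0 of 16268 genes (0%) and no member; 2538 genes had an unadjusted p under 0.05, and DESeq2 called 482 genes and no member. The estimate for Chchd3 was -0.22 (SE 0.05, adjusted p = 0.21).

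**Figure D3:**
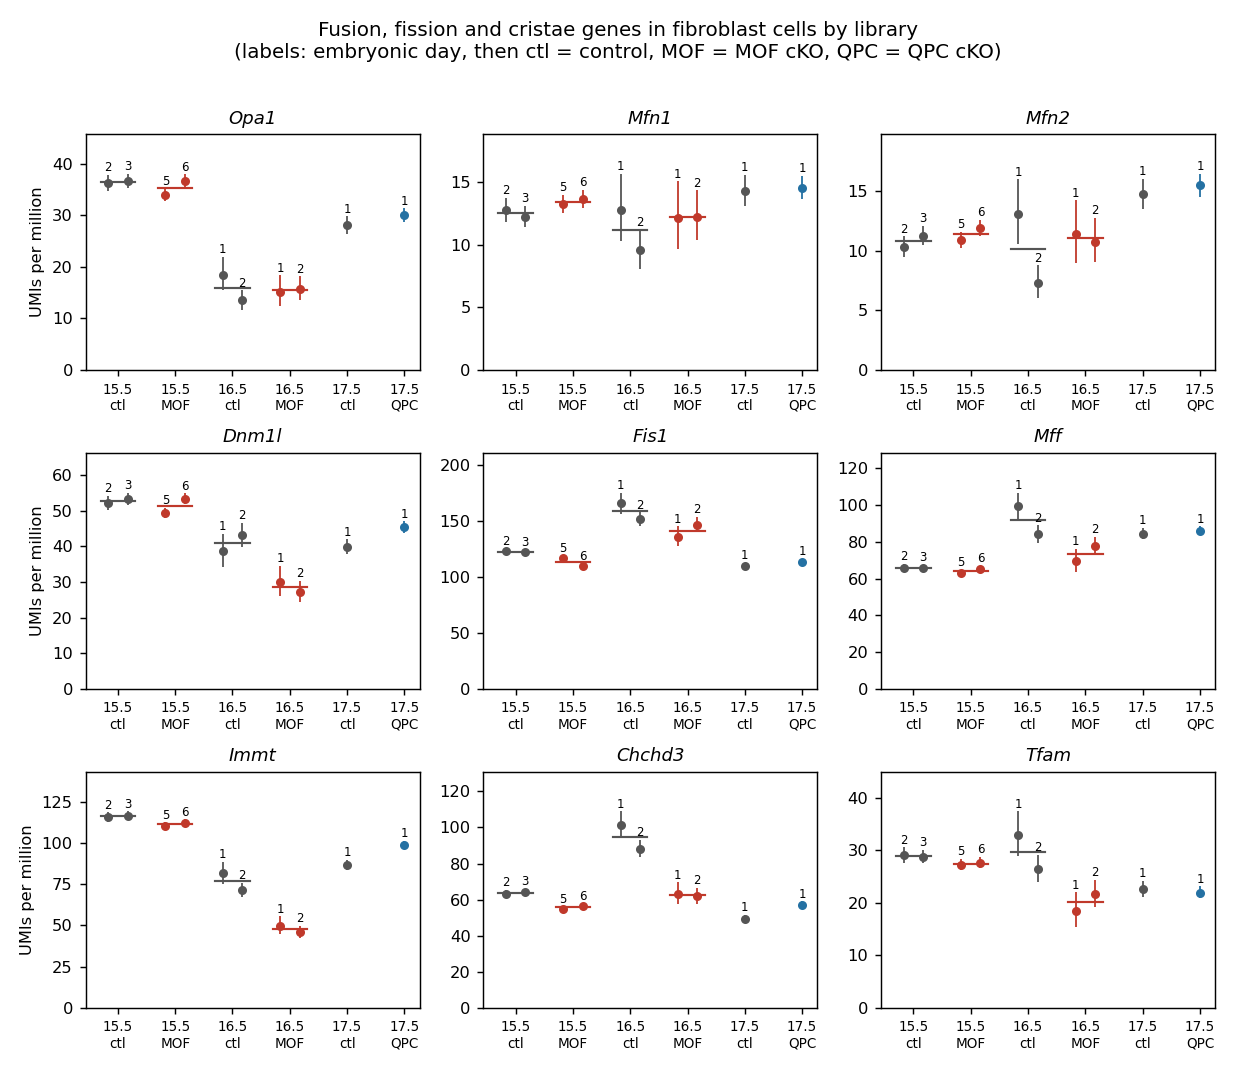
UMIs per 1000000 of the 9 genes in fibroblast cells by library, drawn as for epithelial cells. The E15.5 cKO libraries lie close to the controls, and at E16.5 both cKO libraries sit below both controls for Immt, Chchd3, Tfam, Dnm1l, Fis1 and Mff.

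At E16.5 Immt was 81.8 and 71.7 CPM in control fibroblasts and 49.9 and 46.0 in cKO fibroblasts. Chchd3 was 101 and 88.1, then 63.3 and 61.9. Tfam was 33.0 and 26.5, then 18.5 and 21.7, and Dnm1l 38.7 and 43.1, then 30.04 and 27.3. Both cKO libraries lay below both controls for these 4 genes and for Fis1 (166 and 152, then 136 and 147) and Mff (99.3 and 84.2, then 69.7 and 77.6), as in 38% of genes with at least 100 UMIs. Opa1 was 18.5 and 13.5 in the controls and 15.1 and 15.8 in the cKO, and Mfn1 and Mfn2 overlapped too, within 9.56 to 12.8 and 7.3 to 13.1. No member passed (4.64% of 12569 genes), at -0.55 for Immt (SE 0.13, adjusted p = 0.0777), -0.47 for Chchd3 (adjusted p = 0.0918), -0.43 for Tfam and -0.40 for Dnm1l.

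Over both stages 3 members were lower in cKO fibroblasts, compared with 8.43% of 14895 genes. Chchd3 fell by 0.35 on the log2 scale (SE 0.06, adjusted p = 0.0124), Immt by 0.33 (SE 0.07, adjusted p = 0.0208) and Tfam by 0.27 (SE 0.06, adjusted p = 0.0325). Each was lower than both controls of its stage in 4 of 4 cKO libraries, but so were Fis1 and Mff, which did not pass. The share of all genes lower in this way at both stages was not obtained. The count was 2 with library size alone, Tfam no longer passing (-0.31, adjusted p = 0.0735). Opa1 stood at 0.01 (SE 0.07). Dnm1l was at -0.24 and did not pass (adjusted p = 0.116). Leaving out any 1 of the 4 E15.5 libraries (control replicates 2 and 3, cKO replicates 5 and 6) brought the count to 0, with adjusted p for Chchd3 between 0.0594 and 0.0791 and its estimate between -0.34 and -0.32. Without E16.5 cKO replicate 1 the count was 2, without E16.5 cKO replicate 2 it was 1, and without E16.5 control replicate 1 it was 4.

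Markers of other cells also differed in the fibroblast class. The 10 epithelial markers summed to 740 and 482 CPM in E16.5 controls and to 246 and 255 in the cKO, and to 167 and 246, then 95.4 and 113 at E15.5. Other lists were higher in the E16.5 cKO: immune markers summed to 17.9 and 38.7 in the controls and 100.2 and 232 in the cKO, endothelial markers to 6.95 and 9.09, then 25.01 and 19.2, myogenic markers to 22.3 and 17.99, then 50.9 and 59.0, and pericyte markers to 53.1 and 59.2, then 68.4 and 84.4. At E15.5 myogenic markers summed to 19.3 and 19.9, then 29.01 and 33.7, endothelial markers to 7.98 and 7.23, then 16.2 and 11.1, and pericyte markers to 63.2 and 92.4, then 101 and 122. Erythroid markers overlapped between the groups at both stages. Fibroblast markers summed to 25164 and 24728 in E15.5 controls and to 28843 and 31131 in the cKO, and to 27839 and 24778, then 32065 and 33579 at E16.5. The mitochondrially encoded share of UMIs was 3.70% and 3.63%, then 3.61% and 4.32% at E15.5, and 2.86% and 2.58%, then 2.39% and 2.41% at E16.5. The part of these values in the members' levels was not tested. With at least 60 collagen UMIs and under 3 keratin UMIs a cell, the E16.5 estimates were as large (Immt -0.63, Chchd3 -0.57, Tfam -0.50). That limit kept 71 of 657 and 597 of 1433 control cells and 356 of 518 and 927 of 1053 cKO cells, so unequal parts of the groups were compared.

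The difference between the classes was tested directly within libraries. At E15.5 no member passed (0 of 16479 genes, 0%; 1194 at an unadjusted p under 0.05, with no other tool run), and the log2 difference of cKO from control in epithelial cells minus that in fibroblasts was -0.42 for Opa1 (SE 0.23) and -0.57 for Mfn1 (SE 0.28). Without replicate 6, which leaves 1 cKO library against 2 controls and assumes that it varies as they do, 5 members passed in that direction, among 20.6% of all genes: Mfn1 (-0.94, adjusted p = 0.000941), Opa1 (-0.73, adjusted p = 0.000861), Mfn2 (-0.60), Chchd3 (-0.39) and Fis1 (-0.33). In that fit Kat8 passed the other way (0.64, adjusted p = 0.0102; 0.44, SE 0.23, with all libraries), at 0.22 in epithelial cells and -0.44 in fibroblasts, neither of which passed. So did Uqcrq (0.33, adjusted p = 0.00494). Without replicate 5 instead, no member passed, 3 of 9 estimates were negative (median 0.0468), and Kat8 stood at 0.27 (adjusted p = 0.337). At E16.5 no member passed (0.38% of 13169 genes), with Opa1 at -0.97 (SE 0.44, adjusted p = 0.277).

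Levels in the 2 classes were then compared within the 5 control libraries. Mfn1 was higher in epithelial cells in 5 of 5 libraries, by 1.43 to 1.64 times, as was Tfam by 1.28 to 1.504, Immt by 1.16 to 1.43 and Chchd3 by 1.02 to 1.22. The share of all genes higher in 5 of 5 libraries was not obtained. In the test blocked on library these 4 members were higher, among 30.5% of 14505 genes: Mfn1 by 0.64 on the log2 scale (SE 0.08, adjusted p = 0.0016), Tfam by 0.57 (SE 0.08, adjusted p = 0.00179), Immt by 0.39 (SE 0.06, adjusted p = 0.00324) and Chchd3 by 0.16 (SE 0.05, adjusted p = 0.045). The Chchd3 call was lost with library size alone (0.11, adjusted p = 0.191) and without any 1 of the libraries other than E16.5 control 1. Without E16.5 control 1 Dnm1l passed as well (0.21, adjusted p = 0.0182), which made 5 members. One of the 5 libraries is the E17.5 control, whose epithelial class held more fibroblast than epithelial marker UMIs. Under the collagen limit the same 4 members passed, among 4695 higher and 4618 lower of 14361 genes: Mfn1 (0.77), Tfam (0.66), Immt (0.47) and Chchd3 (0.19, adjusted p = 0.0462). Without the E17.5 control Mfn1 (0.67), Tfam (0.58) and Immt (0.40) passed.

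Opa1 was higher in epithelial cells in 3 of 5 libraries (log2 0.13, SE 0.06, adjusted p = 0.094), and Fis1 in 1 of 5 (-0.08, SE 0.05, adjusted p = 0.203). The paralogous mitofusins thus differed in their calls, Mfn1 passing and Mfn2 not (log2 0.18, SE 0.10, adjusted p = 0.18). That difference itself was not tested.

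**Figure D4:**
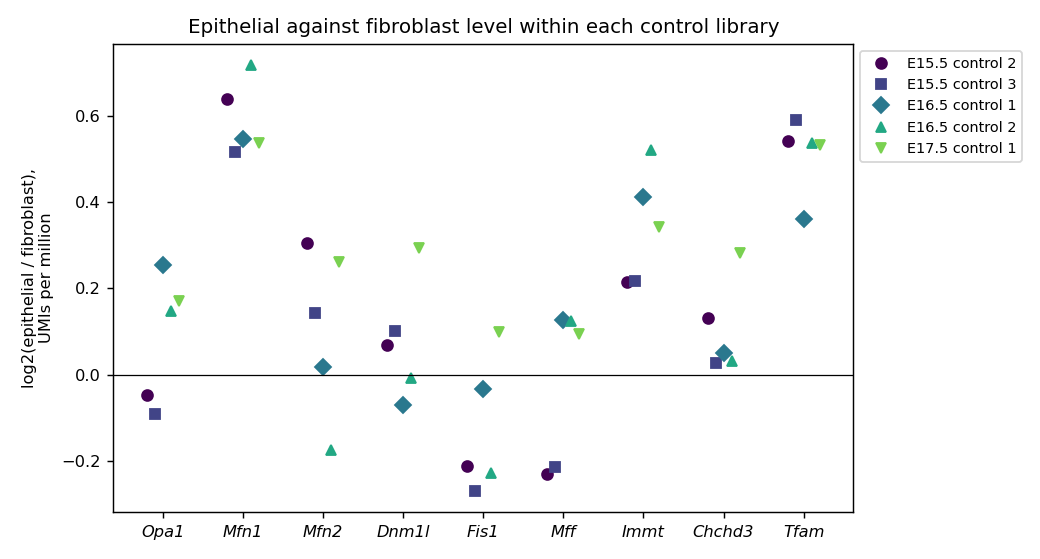
log2 ratio of epithelial to fibroblast UMIs per 1000000 within each of the 5 control libraries, 1 point per library. Mfn1, Immt, Chchd3 and Tfam lie above 0 in all 5 libraries, and Fis1 in 1. The share of all genes above 0 in all 5 was not obtained.

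Among 5 further classes with at least 20 cells in both E15.5 controls, the order differed between genes. Fis1 was highest in endothelial cells (261 CPM ± 1.6, SD, n = 2), then immune (202 ± 5.97), Schwann (178 ± 21.4), melanocyte (140 ± 15.7), myogenic (136 ± 7.69), fibroblast (122 ± 0.415) and epithelial cells (104 ± 3.23). Only the melanocyte and myogenic libraries overlapped as neighbours in that order. Opa1 was highest in melanocytes (65.2 ± 14.8) and Schwann cells (61.7 ± 5.94), which overlapped, and lowest in endothelial cells (34.1 ± 0.706), which overlapped with epithelial cells (34.8 ± 0.463).

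Mfn1 was also highest in melanocytes (22.3 ± 2.62) and Schwann cells (21.8 ± 1.28) and lowest in immune cells (10.9 ± 0.465). Immt ran from 116 ± 0.578 in fibroblasts to 198 ± 22.8 in melanocytes. Melanocyte levels rested on 65 and 66 cells, so that Mfn1 was counted there by 32 UMIs. In endothelial cells Fis1 stood between 204 and 294 CPM in each of the 7 libraries with 20 such cells, and in immune cells between 161 and 286 in all 10.

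At E17.5, 1 QPC cKO library was set against 1 control, so no test was possible and intervals cover counting error only. In epithelial cells Opa1 was 31.5 CPM in the control and 35.7 in the QPC cKO (ratio 1.13, exact 95% interval 1.05 to 1.22), Mfn1 20.7 and 23.9 (ratio 1.1501), and Mfn2 17.7 and 17.4 (ratio 0.984). Dnm1l was 48.9 and 59.3 (ratio 1.21, 1.14 to 1.28), Mff 90.2 and 106 (ratio 1.18) and Fis1 117 and 111 (ratio 0.944). Immt was 110.1 and 119 (ratio 1.08), Chchd3 59.9 and 68.6 (ratio 1.14) and Tfam 32.7 and 36.2 (ratio 1.11). No member changed by 1.5-fold, which 26.5% of 13462 genes with at least 100 UMIs did.

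These ratios depended on the collagen-rich cells of the control. In the 1783 control and 1060 cKO epithelial cells under the collagen limit, Opa1 was 35.9 and 36.6 CPM (ratio 1.02, 0.938 to 1.11), Immt 128 and 120 (0.939, 0.899 to 0.982), Mfn2 20.6 and 17.4 (0.845, 0.753 to 0.948) and Dnm1l 54.4 and 60.4 (1.11, 1.04 to 1.18). The median ratio of genes with at least 100 UMIs was 0.96 in these cells and 0.997 in the whole class. Members with a ratio above 1 went from 7 to 4 of 9. The ratio of Uqcrq was 0.28 in these cells. In fibroblasts Immt was 86.9 and 99.1, Chchd3 49.3 and 57.1 and Opa1 28.0 and 30.02, and all 9 members lay between ratios of 0.972 and 1.16, with none past 1.5-fold (13.7% of 12891 genes), around a median of 1.08 for all genes. With TMM scaling the fibroblast ratios were 0.912 (Tfam, 0.836 to 0.995) to 1.09, and those above 1 went from 8 to 4 of 9. In the whole epithelial class TMM scaling gave 0.961 to 1.23, with 8 of 9 above 1.

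**Figure D5:**
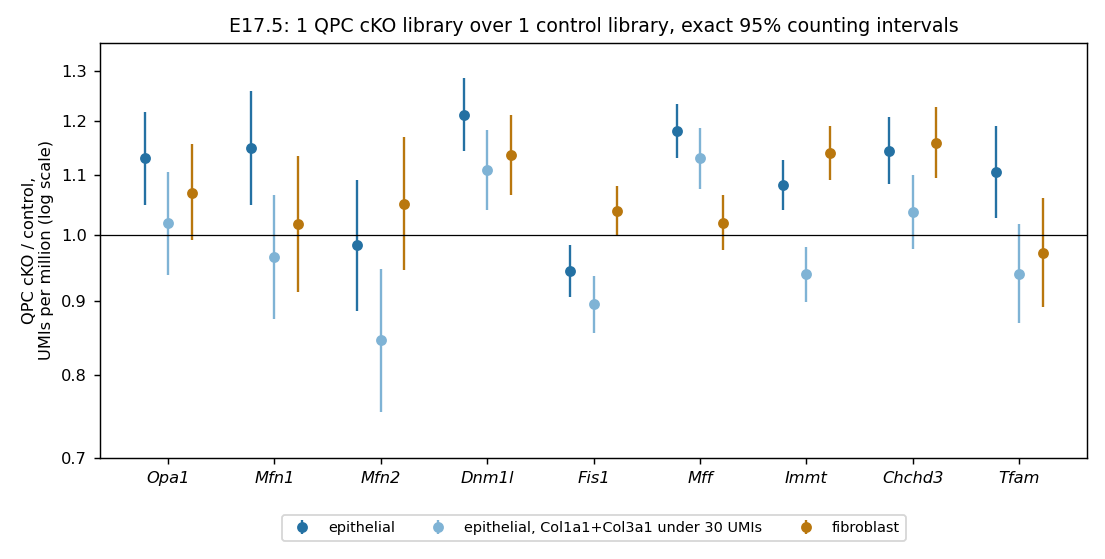
Ratio of the QPC cKO to the control library in UMIs per 1000000 at E17.5 on a log axis, with exact 95% intervals for counting error; dark blue is epithelial cells, light blue those with under 30 collagen UMIs, and brown fibroblasts. Ratios in epithelial cells, 0.944 to 1.21, drop to 0.845 to 1.13 under the collagen limit.

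Other genes of these pathways were read from lists of 11 fusion and processing, 11 fission, 10 cristae, 16 mitochondrial DNA and 7 transport and cardiolipin genes and the 13 mitochondrially encoded ones. At E15.5 no listed gene passed in either class with all libraries, and none without replicate 5. Without replicate 6, where 45.5% of all genes passed in epithelial cells, 5 cristae, 2 fusion, 5 mitochondrial DNA, 4 mitochondrially encoded and 1 transport gene were lower there, and 2 fission, 2 mitochondrial DNA and 2 mitochondrially encoded genes were higher. With all libraries, the 2 genes of each list in epithelial cells with the smallest unadjusted p were Chchd10 (0.47) and Micos13 (-0.20), Inf2 (0.97) and March5 (0.24), Spg7 (-0.20) and Phb2 (0.14), Polg2 (0.59) and Esrra (0.61), Trak2 (-0.36) and Trak1 (0.13), and mt-Nd1 (0.53) and mt-Nd6 (-0.26), given as log2 fold changes with adjusted p of 0.503 to 0.771. None passed in E16.5 fibroblasts or in the differences between stages and classes with all libraries and TMM scaling. With library size alone Chchd10 was higher in E16.5 fibroblasts (2.22, adjusted p = 0.0438). For the difference between classes at E15.5 without replicate 6, 4 cristae, 1 fission, 2 fusion, 5 mitochondrial DNA, 3 mitochondrially encoded and 1 transport gene passed with a negative difference and 1, 4, 1, 2, 3 and 0 with a positive one, beside 3494 negative and 2860 positive of 16953 genes (37.5% in all). In E16.5 epithelial cells 2 listed genes passed. Chchd6 (MIC25), another MICOS subunit, was 52.4 and 47.0 CPM in the controls and 6.92 and 11.2 in the cKO (log2 -1.83, SE 0.37, adjusted p = 0.0436). Inf2, a formin that builds actin at sites of fission, was 14.5 and 8.97, then 27.7 and 41.2 (log2 2.18, SE 0.37, adjusted p = 0.0279). So 1 of 10 cristae genes was lower and 1 of 7 tested fission genes higher, on 4 to 33 UMIs in the cKO cells, beside 113 lower and 465 higher of all 9938 genes. With library size alone Inf2 did not pass (1.56, adjusted p = 0.0661).

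Over both stages the same 2 genes passed in epithelial cells (Chchd6 -1.18, adjusted p = 0.036; Inf2 1.54, adjusted p = 0.0204) together with Esrra, a nuclear receptor for mitochondrial genes (1.05, adjusted p = 0.031), beside 370 lower and 622 higher of 13602 genes. With library size alone Esrra did not pass (0.71, adjusted p = 0.11), and 1 gene of the mitochondrial DNA list and 1 of the fusion list were lower. At E15.5 Chchd6 was 40.0 and 40.8 in the controls, 17.3 in replicate 5 and 38.7 in replicate 6, and Inf2 6.85 and 5.92, then 13.1 and 9.37. Leaving out either E16.5 cKO library ended the calls of both genes at E16.5 and all 3 calls over both stages. Leaving out either E15.5 control also ended those 3 calls over both stages. The 2-stage call of Chchd6 held only without replicate 6.

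In fibroblasts over both stages, Chchd6 (-0.43, adjusted p = 0.017) and Apoo (MIC26, -0.45, adjusted p = 0.0322) of MICOS fell with Immt and Chchd3, as did the fission regulators Mtfr1 (-0.46), Mtfr1l (-0.27) and Mtfp1 (-0.9998) and the prohibitin Phb2 (-0.22, adjusted p = 0.0439). Chchd10 (1.18, adjusted p = 0.0382), a protein of the intermembrane space, and Polg2 (0.32, adjusted p = 0.0467), a subunit of the mitochondrial DNA polymerase, rose. That is 2 lower and 1 higher of 10 cristae, 3 lower of 10 tested fission, 1 lower of 11 fusion and 1 higher of 16 mitochondrial DNA genes, beside 1256 lower and 1030 higher of all 14895 genes. With library size alone 4 cristae genes were lower, and the calls of Phb2 (-0.26, adjusted p = 0.0652) and Polg2 (0.28, adjusted p = 0.104) were lost. List medians were -0.21, -0.22, -0.10 and -0.0022, against 0.01 for all genes. Each of these calls was lost without any 1 of the E15.5 libraries.

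Between classes of control cells, 11 of 16 mitochondrial DNA genes, 7 of 10 cristae genes and 13 of 13 mitochondrially encoded genes were higher in epithelial cells and none was lower, beside 4417 higher (30.5%) and 4467 lower of all 14505 genes, with list medians of 0.55, 0.27 and 0.50 against 0.02 for all genes. With library size alone the counts were 10, 5 and 12. The cells had been chosen to hold under 10% mitochondrially encoded UMIs. Chchd10 differed most of the cristae list (log2 3.96, adjusted p = 0.000273): it was 45.9 and 50.9 CPM in E15.5 control epithelial cells and 3.31 and 2.79 in fibroblasts. Apoo (0.76), Dnajc11 (0.60) and Chchd6 (0.49) of that list were also higher. The coactivator Ppargc1b (1.70, adjusted p = 0.000375), the topoisomerase Top1mt (1.24, adjusted p = 0.000365), the protease Lonp1 (0.63), the nuclease Mgme1 (0.95) and Oma1, a protease that cleaves OPA1 (0.94, adjusted p = 0.0031), were higher too. Of the fission list, Mtfr1 was higher (0.72, adjusted p = 0.000725) and Mtfr1l (-0.61, adjusted p = 0.00182), Dnm2 (-0.23, adjusted p = 0.0115) and Mief2 (-0.66, adjusted p = 0.0362) lower, 1 and 3 of 10 tested, the latter near the share of all genes that were lower. Of 11 fusion and processing genes 3 were higher (Oma1, Stoml2 by 0.39, Phb2 by 0.45) and Yme1l1, another protease that cleaves OPA1, was lower (-0.14). Of 6 tested transport and cardiolipin genes, Taz (0.52), which remodels cardiolipin, and Rhot2 (0.40) were higher and Trak2 (-0.87) lower. The mitochondrial mRNAs mt-Nd2 (0.65), mt-Co1 (0.63), mt-Nd5 (0.64) and mt-Nd4 (0.49) had the smallest adjusted p of their list.

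Genes whose levels followed those of Opa1 most closely over the 20 class sums of the 10 libraries, centred by stage, were Ccz1 (Pearson's r = 0.984), Ints1 (0.976) and Ccdc43 (0.975). For Tfam they were Mecr (0.979), Nup54 (0.9699) and Parl (0.969), and for Mfn2 Ap1g1 (0.899), Ggta1 (0.896) and Capn7 (0.883). They are the top 3 of 8252 genes of at least 10 CPM. The sums share libraries and depth, so these values are descriptions.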

How the data were processed

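The deposited files hold whole-number UMI counts per gene and barcode, which the authors made with Cell Ranger on mm10 from 3′ libraries (v2 chemistry at E16.5, later chemistries otherwise). The submitters' processing notes list versions 1.3.1 and 6.1.2. Counts were used as deposited, and all 10 libraries were grouped by their labels. Depth ranged from 13609345 to 203392303 UMIs a library. Libraries shared at most 36 kept barcodes (0.354% of the smaller library).

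UMIs were summed by library and class and tested with edgeR 4.0.16 (filterByExpr, TMM, quasi-likelihood, Benjamini-Hochberg adjusted p under 0.05). The fits were also run on simulated counts with known changes. Those runs do not give the power for smaller changes, such as those estimated for the members. Intervals of counts were exact Poisson, those of ratios exact binomial, at 95%. SEs of fold changes were derived from the estimate and its F statistic, and their 95% intervals from the t distribution. They need not match the p-values exactly. P-values measure the spread between samples labelled as replicates. At E16.5, deviations of same-numbered libraries did not correlate (r = -0.02 in both classes), so numbers were not used to pair them. The text names all 9 members, of each related list up to 4 genes past the threshold by adjusted p (where none passed, the 2 of smallest p, given here for E15.5 epithelium only), both targeted genes and the 3 genes most similar to Opa1, Tfam and Mfn2. Members and lists were chosen with earlier results of these data known. Alternatives were other scaling, tools, filters, cell limits and left-out libraries. The collagen limit and leave-outs for differences were added after seeing the data.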

Additional observations from a re-analysis of the deposited data

How the results depend on the processing

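No member was called in epithelial cells at E15.5 or E16.5 under the alternatives run with all libraries (scaling, DESeq2, no filter, mitochondrial, keratin and collagen limits), nor over both stages, where only library size alone and the collagen limit were run. In E16.5 cells with at least 10 Krt1 and Krt10 UMIs only 6 of 9 members were tested, on 9 and 17 cKO cells. There 1 member had an unadjusted p under 0.05 in the edgeR test. Leaving out 1 library moved the count from 0 to between 0 and 6 at E15.5, between 0 and 1 over both stages and between 0 and 5 for the difference between classes at E15.5, each upper value being without cKO replicate 6; in fibroblasts over both stages it ran from 0 to 4 around 3, and was 2 with library size alone. Between classes of control cells it ran from 3 to 5 around 4, and was 3 with library size alone. Without a filter on low counts 1 member (Immt) passed in E16.5 fibroblasts. With the replicate number as a block, 0 members passed at E16.5 in either class (549 genes in epithelial cells and 576 in fibroblasts, against 578 and 583), and Opa1 stood at -0.74 in epithelial cells. In E16.5 epithelial cells 2007 genes were called with no filter, 1209 with at least 20 keratin UMIs, 23 under 10 UMIs of Krt1 and Krt10, 390 at or over it, 316 under 5% mitochondrial UMIs and 290 under the collagen limit, and 39 to 1112 with 1 library left out. In E16.5 fibroblasts DESeq2 called 938 genes, no filter 1752, the stricter class 336 and leave-outs 0 to 369. In E15.5 fibroblasts no filter called 222, and leave-outs 0 to 114. Over both stages leave-outs called 0 to 2373 genes in epithelial cells (992 with all libraries, 503 under the collagen limit) and 224 to 3110 in fibroblasts (2286). For the differences they called 0 to 207 between stages, 1 to 6354 between classes at E15.5 and 0 to 1249 at E16.5 (50, and 485 under the collagen limit). With library size alone, higher and lower calls went from 465 and 113 to 263 and 549 in E16.5 epithelial cells, from 622 and 370 to 339 and 898 over both stages, and from 305 and 278 to 346 and 491 in E16.5 fibroblasts.

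Among the member estimates printed above, signs turned with library size alone for Immt in E15.5 epithelial cells (-0.0262), Mfn1 (-0.0335) and Mfn2 (-0.134) at E16.5 and Opa1 in fibroblasts over both stages (-0.0326). Estimates not printed turned too. Of 9 members, those with negative estimates went from 6 to 9 in E16.5 epithelial cells. They went from 7 to 9 in epithelial cells over both stages and from 6 to 7 in E16.5 fibroblasts. In the same order, the share of all genes went from 54.0% to 75.8%, from 59.1% to 75.2% and from 49.4% to 59.8%. Signs also turned for Tfam at E15.5 under the collagen limit (0.00104), where negative estimates went from 8 to 6 of 9 members. The share of all genes there went from 51.2% to 51.3%. Mfn1 turned at E16.5 under the Krt1 and Krt10 limit (-0.0259). Leaving out 1 library gave -0.25 to 0.0396 for Tfam at E15.5, -0.089 to 1.01 for Mfn2 at E16.5, -0.0621 to 0.0666 for Opa1 in fibroblasts, and for the difference between classes -0.33 to 0.0104 for Fis1 and -0.39 to 0.206 for Chchd3. The cause was not tested. The 30 and 39 cKO cells limit E16.5.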
